A study of Mus musculus with 9 samples.

Results

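The genes described here are 31 cytoskeletal genes known as targets of SRF and its actin-sensing partners, the MRTFs. They were chosen by name with earlier results of these data known, and all were found among the 14209 genes of the count table. Shares of these genes set beside those of all genes are therefore descriptive. They were read across type 2 conventional dendritic cells (cDC2s) from the spleens of C57BL/6 mice from 3 genotypes with 3 RNA-seq libraries each. WT is wild-type, the CD97-deficient group is labelled CD97 KO (the gene Adgre5, listed as Cd97), and the Gα13-deficient group carries CD11c-cre with a floxed Gna13. The genotype text of this last group also names Adgre5-/-, and the age of the mice and whether WT or CD97-deficient mice carried the Cre are not given in the sources used here. CD11c is the integrin chain Itgax, so the Cre acts in cells that use its promoter, which include other dendritic cells and some macrophages. The labels do not tie the libraries to individual mice. The p-values therefore rest on the spread among libraries, part of which may be technical.

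SRF is a transcription factor that binds a short DNA element called the CArG box. Its MRTF partners are held in the cytoplasm by unpolymerised (G) actin. When RhoA drives actin into filaments, MRTF is released, enters the nucleus and switches on genes for actin and its binding proteins, while a second set of SRF partners, the ternary complex factors, serves immediate early genes such as Fos and Egr1. Gα13 activates RhoA through exchange factors, and CD97 is an adhesion receptor that can couple to it. In dendritic cells the actin network shapes migration, adhesion and the contact with T cells.

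Of the 29 genes that could be tested, 7 rose and 1 fell in CD97-deficient cells, and 9 rose and 1 fell in Gα13-deficient cells. These are 27.6% and 34.5% of those tested, beside 8.53% and 11% of all genes. Flna, the crosslinker filamin A, was 1.67-fold higher in CD97-deficient and in Gα13-deficient cells. Actb, the main actin gene, was 1.22-fold higher in each, and Tagln2, a calponin-family actin binder, 1.69-fold and 1.72-fold higher. Tpm1, a tropomyosin, was at 0.733 and 0.726 of its WT level. Srf itself was within 1.06-fold of WT in both knockouts.

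Of the 31 genes, 29 passed the filter on low counts. Cnn3, a calponin, had 2 to 16 counts per library and Lmna, which encodes lamin A/C, 0 to 32, and neither was tested. By edgeR's quasi-likelihood test with Benjamini-Hochberg adjustment over all 12043 genes tested, 7 rose and 1 fell in CD97-deficient cells against WT, where 8.53% of all genes passed (4.84% higher and 3.69% lower). In Gα13-deficient cells 9 rose and 1 fell, where 11% of all genes passed (5.74% higher and 5.24% lower). The CD97-deficient and WT libraries did not overlap for 19 members that were higher and 1 that was lower, against 28.2% of all genes (14.7% higher and 13.5% lower). For Gα13-deficient cells these were 17 and 1, against 29.6% of all genes (15.5% higher and 14% lower). The median log2 fold change over the tested members was 0.262 and 0.228, beside -0.003 and -0.008 for all genes tested. Members also varied less within groups, with a median pooled SD of 0.108 against 0.191 for all genes tested (log2(CPM + 1) scale). At equal fold change, genes with less spread pass and separate more often, and the part this has in the shares was not tested. The 2 comparisons share the WT libraries, so their values are not independent of each other. Both counts depended on single libraries. In Gα13-deficient cells 3 were called without Gα13-deficient replicate 2, and 7 to 10 without any other library. In CD97-deficient cells the count was 3 without WT replicate 1, 3, 4 and 2 without CD97-deficient replicates 1, 2 and 3, and 5 without any one Gα13-deficient library. With the sex pattern of the libraries as a term only Flna was called in CD97-deficient cells. With the macrophage marker level as a term 3 were called there. Both terms are described further on. Calls over all genes in that comparison fell as well with these terms, from 1027 to 222 and 543. The median log2 fold change of the members was then 0.254 and 0.255. Over all genes 472 were called without WT replicate 1 and 364 without CD97-deficient replicate 3. In Gα13-deficient cells 693 were called over all genes without Gα13-deficient replicate 2, beside 1322 with all libraries.

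**Figure D1:**
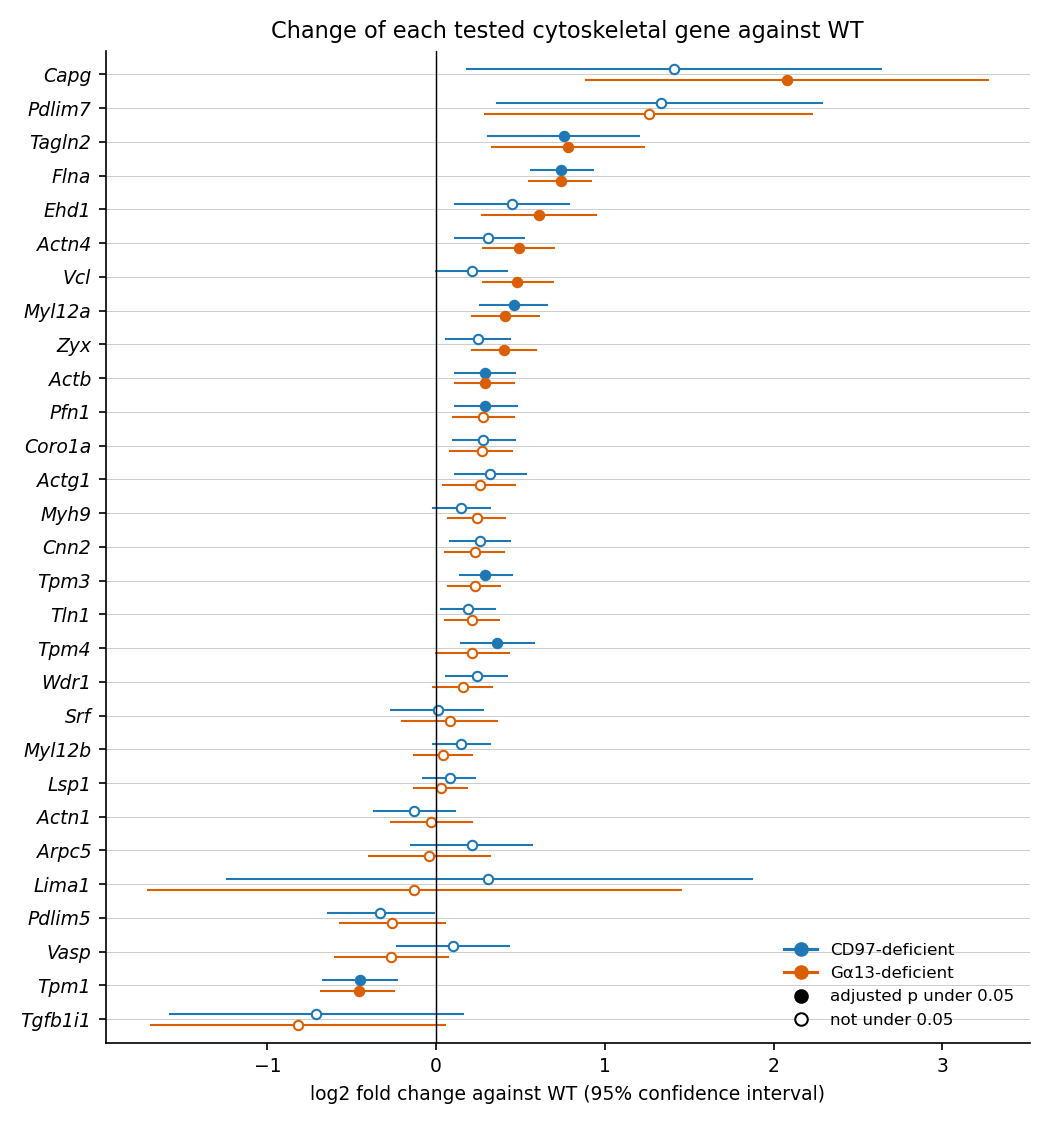
Log2 fold change against WT (x axis) of the 29 tested genes (rows) in CD97-deficient (blue) and Gα13-deficient (orange) cells. Lines are 95% confidence intervals and filled points have an adjusted p under 0.05. Most points lie right of 0, with medians of 0.262 and 0.228, and Tpm1 is the filled point to the left.

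Facts of the whole set of libraries bear on these values. Total counts ran from 5679946 to 13904646 per library. Gna13 RNA was 227, 228 and 186 CPM in WT replicates 1 to 3, 227, 217 and 246 for the CD97-deficient and 114, 96.8 and 91.7 for the Gα13-deficient libraries (CPM are TMM-scaled counts relative to library size throughout). Cd97 was 1510, 899 and 1300 CPM across the WT replicates, 726, 840 and 438 across the CD97-deficient ones and 1150, 1220 and 1020 across the Gα13-deficient ones, a log2 fold change of -0.89 ± 0.28 (SE) in the CD97-deficient group that did not pass (adjusted p = 0.105), and -0.13 ± 0.28 in the Gα13-deficient group. All 12 cDC2 markers on the list were detected in every library, and their sum ran from 9730 to 12200 CPM. In CD97-deficient cells 11 of the 12 had log2 fold changes below 0 (median -0.177) and none passed. In Gα13-deficient cells 9 were below 0 (median -0.212). Itgax and Itgam rose there and Cd4, Esam and Irf4 fell (41.7%, beside 11% of all genes). The 8 plasmacytoid dendritic cell markers summed to 325 to 439, 342 to 393 and 423 to 584 CPM in WT, CD97-deficient and Gα13-deficient libraries. In the last all 8 had log2 fold changes above 0, with Tcf4 (0.40) and Cox6a2 (2.89) past the threshold (25%, beside 11% of all genes). The 8 cDC1 markers summed to 146 to 238, 155 to 237 and 221 to 285 CPM. Xcr1 was higher in both knockouts (1.32 and 1.22) and Batf3 lower in Gα13-deficient cells (-0.43). Those calls are 12.5% and 25% of the list, beside 8.53% and 11% of all genes. The 14 macrophage markers summed to 700 to 1710 CPM for WT, 821 to 2170 for CD97-deficient and 918 to 1280 for Gα13-deficient libraries. In CD97-deficient cells 13 of the 14 had log2 fold changes above 0 (median 0.872), and 1 rose and 1 fell (14.3%, beside 8.53% of all genes). In Gα13-deficient cells 9 were above 0 (median 0.131) and 1 fell (7.14%, beside 11% of all genes). Of 9 platelet markers, 4 were not analysed here, and the sum of the others, mostly Itgb3, was 54.0 to 139 CPM for WT, 72.2 to 154 for CD97-deficient and 140 to 171 for Gα13-deficient libraries, with the defining Itga2b and Gp9 at no more than 2.04 and 0.909 CPM. All 3 CD97-deficient libraries had Xist far above the Y-linked genes, against WT replicate 2 and Gα13-deficient replicate 2 alone in the other groups. The 16 cell cycle markers summed to 1570 to 2270 CPM for WT, 3450 to 3700 for CD97-deficient and 3520 to 4260 for Gα13-deficient libraries. All 16 had log2 fold changes above 0 in both knockouts and 15 rose in each (93.8%). Of all genes 4.84% and 5.74% rose. The part that cell cycle activity or these other cell types have in the cytoskeletal changes was not tested, apart from the macrophage term, and in bulk RNA a higher share of some cells and more RNA per cell cannot be told apart.

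Srf did not pass the test in either knockout. Srf (chromosome 17, 46548329 to 46556175, mm10) had 37.9, 40.0 and 51.5 CPM across the WT replicates, 40.6, 44.8 and 44.1 across the CD97-deficient ones and 40.7, 47.1 and 48.3 across the Gα13-deficient ones. The groups overlapped, and the log2 fold changes were 0.01 (95% confidence interval -0.27 to 0.28) and 0.08 (-0.20 to 0.36). The promoter window of Srf, from 250 bases before to 50 bases after its RefSeq start, holds 2 CArG boxes. Windows could be matched for 27 of the 31 genes and were searched on both strands for the CArG box. Actb, Ehd1, Lsp1 and Tgfb1i1 were not searched. A CArG box was found in 5 of the 27 genes (18.5%), against 1.81% of all 27025 genes with a window and 1.5% of those tested (by window, 1.63% of 32851). Those 5 follow, each with up to 20 bases on either side, 5′ to 3′ on the gene's strand, with the CArG box in capitals, because that box is the element SRF binds. Sequences are from RefSeq, build GRCm38.p6.
Srf, first box, chr17:46556215-46556264, minus strand: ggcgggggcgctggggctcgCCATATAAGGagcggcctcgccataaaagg
Srf, second box, chr17:46556195-46556244, minus strand: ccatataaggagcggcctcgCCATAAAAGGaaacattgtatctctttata
Actg1, chr11:120348556-120348605, minus strand: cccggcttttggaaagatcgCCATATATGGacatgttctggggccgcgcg
Cnn2, chr10:79988524-79988573, plus strand: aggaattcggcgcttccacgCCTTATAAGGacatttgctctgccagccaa
Lima1, chr15:99820167-99820216, minus strand: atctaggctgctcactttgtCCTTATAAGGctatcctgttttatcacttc
Vcl, chr14:20929151-20929200, plus strand: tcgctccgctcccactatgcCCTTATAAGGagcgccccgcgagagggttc

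The boxes began 82 and 62 bases upstream of the start of Srf, 90 of Actg1, 56 of Cnn2, 47 of Lima1 and 227 of Vcl. Cnn2, Lima1 and Vcl carry the same box, CCTTATAAGG, which reads alike on both strands. Allowing 1 G or C within the run of A and T bases brought in Lmna, Myl12a, Tpm3 and Vasp, so that 9 of 27 genes (33.3%) had a match, against 11.3% of all genes with a window and 10.8% of those tested. In Myl12a the looser match lies 18 bases upstream of the start and in Vasp 31 bases upstream, and both are shown with the mismatch inside the capitals.
Myl12a, chr17:71002534-71002571, minus strand: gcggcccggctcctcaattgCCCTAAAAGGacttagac
Vasp, chr7:19271856-19271905, minus strand: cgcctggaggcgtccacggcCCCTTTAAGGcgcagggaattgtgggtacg

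Of the 5 genes with a CArG box, 0 passed the test in CD97-deficient cells and 1, Vcl, passed in Gα13-deficient cells. Of the 20 tested genes with a window and no box, 7 passed in each comparison (35%). Of all genes tested 8.53% and 11% passed, and with 5 genes counts of 0 and 1 lie near those shares. The median log2 fold changes of the 5 genes were 0.262 and 0.228, beside 0.268 and 0.235 for the 20 genes. The changed genes Flna, Tagln2, Tpm1, Actn4, Zyx, Tpm4, Pfn1 and Capg had neither match in the window, which says only that these letters are not in it.

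The listed regulators of the pathway, 21 of 23 of which were tested, had 0 called genes in CD97-deficient cells, and 1 higher and 3 lower in Gα13-deficient cells, 1 of them the deleted gene. These are 0% and 19% of those tested, beside 8.53% and 11% of all genes. Mkl1 and Mkl2, which encode MRTF-A and MRTF-B, had log2 fold changes of -0.14 and 0.04 in CD97-deficient cells and -0.07 and -0.03 in Gα13-deficient cells, none past the threshold. Rhoa, the GTPase that starts the pathway, was 211, 248 and 208 CPM across the WT replicates, 298, 260 and 274 across the CD97-deficient ones and 250, 277 and 306 across the Gα13-deficient ones. Every knockout library lay above every WT library. Its log2 fold change was 0.32 ± 0.10 (SE) in both comparisons, with adjusted p of 0.055 and 0.0454. The genes that fell in Gα13-deficient cells were Gna13 itself, Arhgef12, an exchange factor through which Gα13 reaches RhoA, and Scai, an inhibitor of MRTF. Arhgef12 was 33.4, 28.8 and 22.3 CPM in WT against 16.5, 15.6 and 11.9 in Gα13-deficient libraries (log2 fold change -0.96 ± 0.18, adjusted p = 0.00401). Scai was 59.2, 53.7 and 52.1 against 41.1, 39.3 and 37.9 CPM (-0.48 ± 0.11, adjusted p = 0.0122). In CD97-deficient cells Arhgef12 and Scai had log2 fold changes of -0.49 and -0.35 with adjusted p of 0.106 and 0.0637.

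The 2 cytoplasmic actins were higher in all knockout libraries than in any WT library. Actb (chromosome 5, 142903115 to 142906754) encodes β-actin. It had 4726, 5439 and 5530 CPM across the WT replicates, 5969, 6408 and 6798 across the CD97-deficient ones and 6107, 6585 and 6450 across the Gα13-deficient ones. WT replicate 1 was the lowest, and neither knockout group overlapped WT. The log2 fold change was 0.29 ± 0.08 (SE) in both comparisons (adjusted p = 0.043 and 0.0376). The calls were near the threshold. With 1 library left out, the CD97-deficient call held only without WT replicate 2 or 3, and its adjusted p reached 0.19 without CD97-deficient replicate 3. The Gα13-deficient call held only without WT replicate 2, WT replicate 3 or CD97-deficient replicate 3, and reached 0.13 without Gα13-deficient replicate 2.

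Actg1 (chromosome 11, 120345690 to 120348542) encodes γ-actin. Its level was 119, 141 and 149 CPM across the WT replicates, 158, 165 and 187 across the CD97-deficient ones and 155, 161 and 173 across the Gα13-deficient ones. The log2 fold changes of 0.32 and 0.26 did not pass (adjusted p = 0.0621 and 0.118). Actg1 made up 2.54% ± 0.0807 (SD, n = 3) of the Actb and Actg1 counts for WT, 2.59% ± 0.0838 for CD97-deficient and 2.49% ± 0.112 for Gα13-deficient libraries. The balance of the 2 actins differed by less than the spread between libraries. The low Actg1 count is uncertain as a level, because 56.7% of the 50-base stretches of its longest transcript also occur in transcripts of other annotated genes, 22 in all, and the sources used here do not say how such reads were counted. For Actb that share was 14.2%. Per kb of exon, Actb was the 6th of 12770 genes in WT and alone held 41.0% to 43.7% of the counts of the 31 genes. These genes together took 1.10% to 1.27% of all counts for WT, 1.46% to 1.60% for CD97-deficient and 1.40% to 1.53% for Gα13-deficient libraries.

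**Figure D2:**
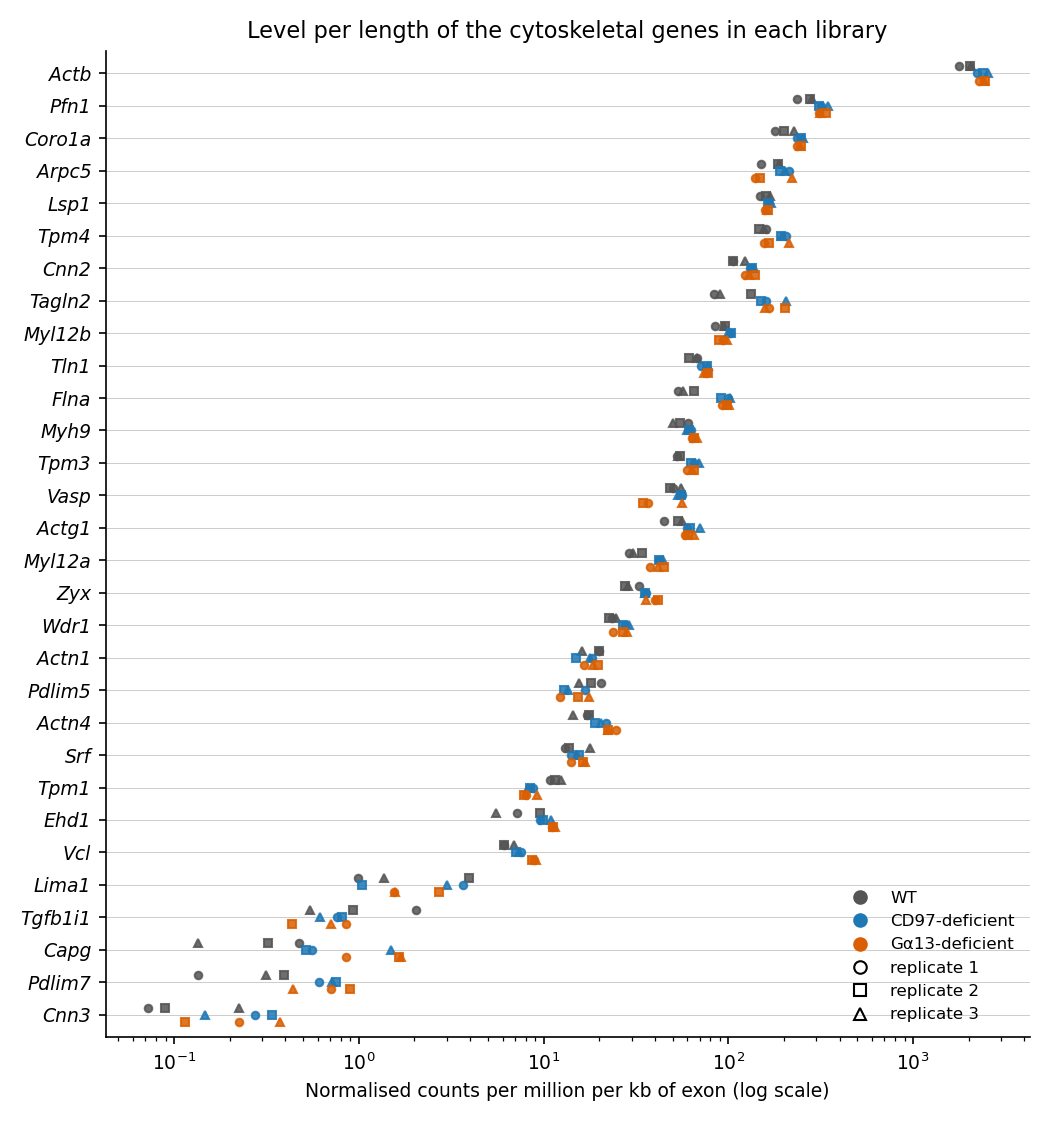
Level of 30 of the 31 genes (rows, ordered by the WT mean) in TMM-scaled CPM per kb of exon, on a log axis; Lmna is left out because it was 0 in 2 WT libraries. Points are libraries, coloured by genotype and shaped by replicate, and Actb stands far above the rest, followed by Pfn1 and Coro1a.

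Per length, the order in WT after Actb (1950 ± 164 CPM per kb, SD, n = 3) was Pfn1 (265 ± 26.5), Coro1a (202 ± 23.8), Arpc5 (175 ± 21), Lsp1 (159 ± 9.09) and Tpm4 (154 ± 6.62). Pfn1 stood above Coro1a, while the WT libraries of Coro1a and Arpc5, of Arpc5 and Lsp1, and of Lsp1 and Tpm4 overlapped. The length is that of all annotated exons of a gene together, and the order depends on this choice. For Lsp1 it is 5174 bases beside 1910 in its longest coding transcript, and for Arpc5 2276 beside 1914. Lima1, Tgfb1i1, Capg, Pdlim7, Cnn3 and Lmna were at 0.0155 to 2.09 CPM per kb, and Srf was at 14.9 ± 2.53.

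Among the proteins that tie filaments together, filamin changed most clearly. Flna (chromosome X, 74223461 to 74249820) links filaments into nets and anchors integrins to them. It had 500, 615 and 533 CPM across the WT replicates, 938, 859 and 958 across the CD97-deficient ones and 868, 928 and 948 across the Gα13-deficient ones. The lowest knockout library was far above the highest WT library. The log2 fold change was 0.74 ± 0.09 (SE; adjusted p = 0.000584) in CD97-deficient and 0.74 ± 0.09 (adjusted p = 0.000172) in Gα13-deficient cells. In both comparisons Flna passed whichever of the 9 libraries was left out, and under the 10 other alternatives. With the sex pattern as a term, the CD97-deficient value was 0.651 (adjusted p = 0.00916). None of the 50-base stretches of its transcript occurs in another gene.

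The α-actinins, which bundle parallel filaments, moved unequally. Actn4 had 105, 108 and 88.5 CPM across the WT replicates, 133, 116 and 126 across the CD97-deficient ones and 151, 136 and 136 across the Gα13-deficient ones. It rose by a log2 fold change of 0.49 ± 0.10 in Gα13-deficient cells (adjusted p = 0.00513, called in all 9 fits without a library), while 0.31 ± 0.10 in CD97-deficient cells did not pass (adjusted p = 0.061). Actn1 had 111, 110 and 88.8 CPM across the WT replicates, 101, 83.2 and 99.1 across the CD97-deficient ones and 92, 109 and 103 across the Gα13-deficient ones, so that the groups overlapped (log2 fold changes -0.13 and -0.03). The share of Actn4 in the counts of the pair was 48.6%, 49.6% and 49.9% in WT. In CD97-deficient libraries it was 56.7%, 58.3% and 56.0%, and in Gα13-deficient ones 62.2%, 55.5% and 57.0%. All 6 knockout libraries were above the WT range, which spans little more than 1 percentage point.

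Of the 8 genes of focal adhesions and their LIM-domain partners, none was called in CD97-deficient and 2 were in Gα13-deficient cells, Vcl and Zyx. Such small counts lie near the shares of all genes called, 8.53% and 11%. Vcl (chromosome 14, 20929398 to 21033676) encodes vinculin, which couples talin to actin under tension. It had 49.7, 49.9 and 56.7 CPM across the WT replicates, 61.9, 58.2 and 60.5 across the CD97-deficient ones and 72.5, 70.9 and 74.5 across the Gα13-deficient ones. The 3 groups did not overlap, in that order. The log2 fold change was 0.48 ± 0.10 in Gα13-deficient (adjusted p = 0.00504) and 0.21 ± 0.10 in CD97-deficient cells (adjusted p = 0.196). The difference between the knockouts, 0.27 ± 0.10 (95% confidence interval 0.07 to 0.48), did not pass over all genes (adjusted p = 0.669). The end of Vcl overlaps Ap3m1 on the opposite strand, and 39.2% of its 50-base stretches are shared with that gene. Ap3m1 had log2 fold changes of 0.11 and -0.11, neither past the threshold.

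Zyx, zyxin, a sensor of filament tension at adhesions, had 178, 148 and 155 CPM across the WT replicates, 193, 190 and 190 across the CD97-deficient ones and 217, 224 and 193 across the Gα13-deficient ones. The log2 fold change was 0.40 ± 0.09 in Gα13-deficient cells (adjusted p = 0.0107, but 0.0606 without Gα13-deficient replicate 2) and 0.25 ± 0.09 in CD97-deficient cells (adjusted p = 0.0986). Tln1, talin, which activates integrins, had log2 fold changes of 0.19 and 0.21 with adjusted p of 0.125 and 0.0851. Pdlim7, a PDZ and LIM domain protein, had only 6 to 31 counts per library and log2 fold changes of 1.33 ± 0.45 and 1.26 ± 0.45, with adjusted p of 0.0834 and 0.0885. Pdlim5 and Tgfb1i1 had values below 0 in both comparisons, -0.33 and -0.26 for Pdlim5 and -0.71 and -0.82 for Tgfb1i1, none past the threshold. Tgfb1i1, which encodes the adhesion protein Hic-5, was 11.3 CPM in WT replicate 1 against 5.16 and 3.06 in the other WT libraries and 2.43 to 4.77 in all knockout libraries.

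**Figure D3:**
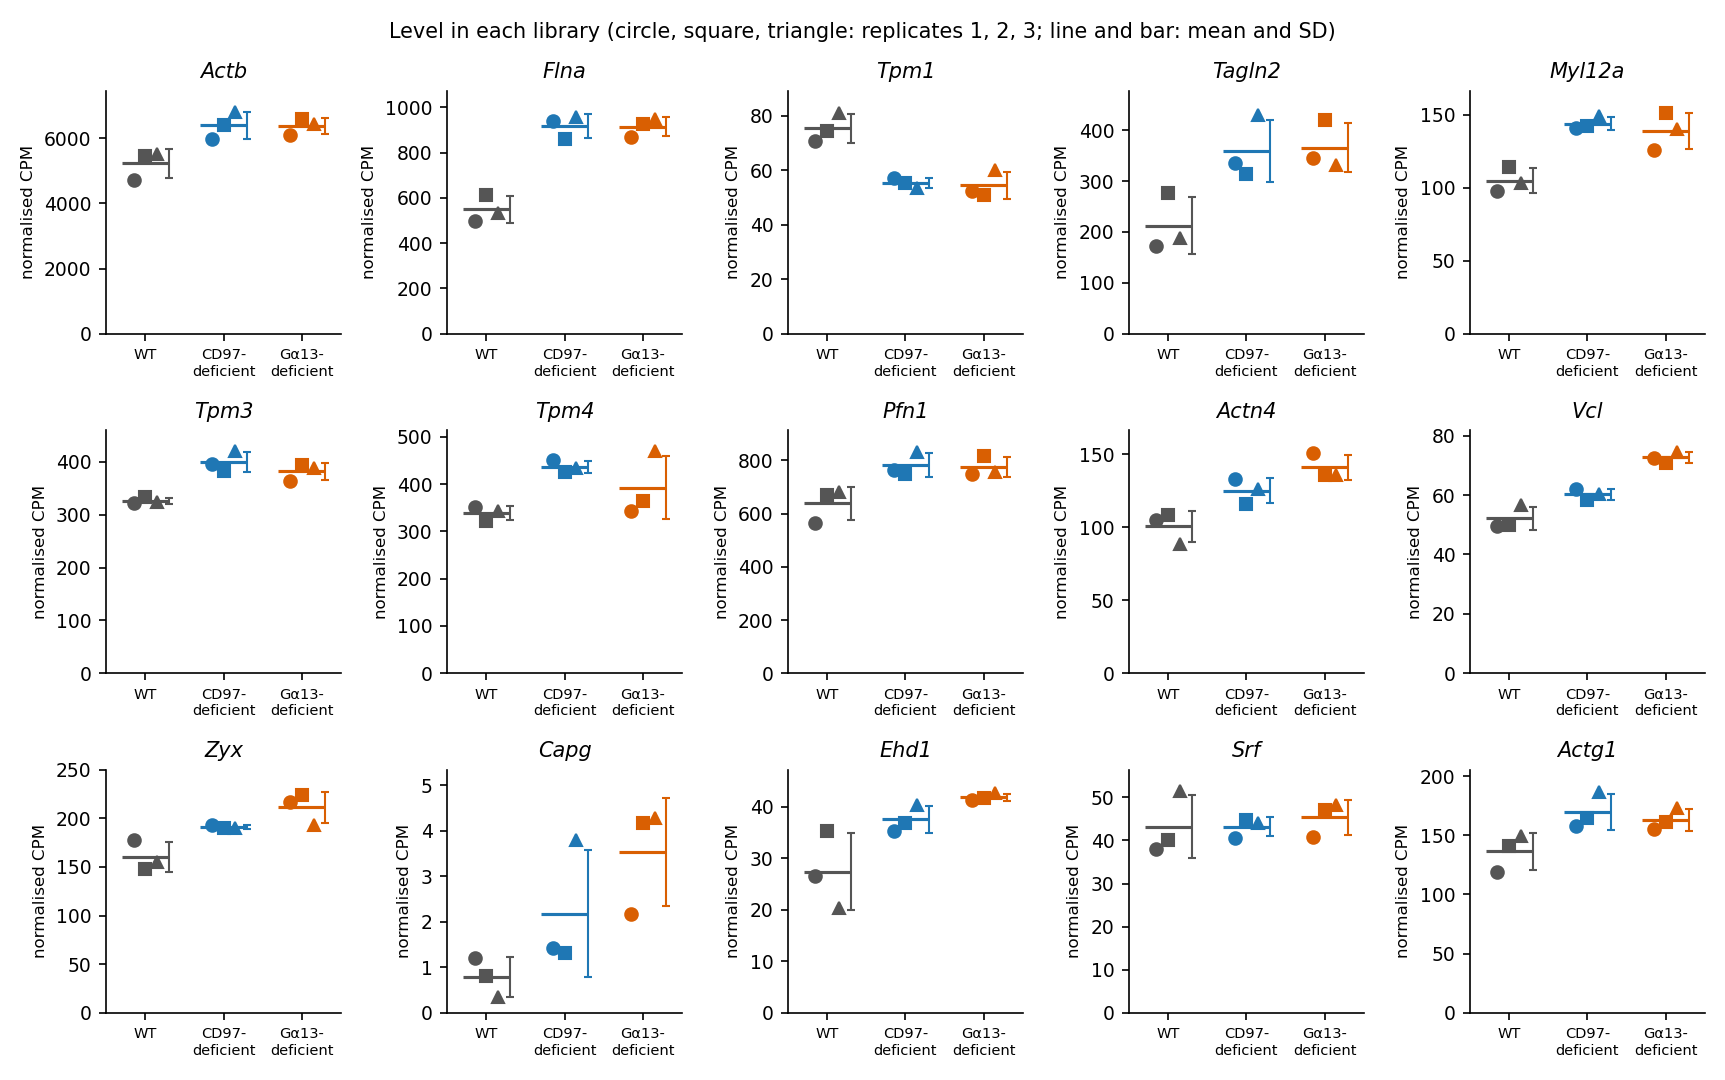
CPM after TMM scaling (y axis, from 0) in each library of WT, CD97-deficient and Gα13-deficient cells for the 13 genes past the threshold in either comparison with WT, and for Srf and Actg1. Symbols are replicates and lines and bars are means and SD. Flna, Tpm1 and Myl12a show knockout libraries apart from WT, while the Srf groups overlap.

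Tropomyosins, which coat filaments and set which myosins and severing proteins reach them, split in direction. Tpm1 (chromosome 9, 67022590 to 67049406) had 70.5, 74.3 and 81.0 CPM across the WT replicates, 57.0, 55.1 and 53.3 across the CD97-deficient ones and 52.4, 50.9 and 59.9 across the Gα13-deficient ones. Every knockout library lay below every WT library. It fell by 0.45 ± 0.10 on the log2 scale (adjusted p = 0.0151) in CD97-deficient cells and by 0.46 ± 0.10 (adjusted p = 0.00939) in Gα13-deficient cells. Without CD97-deficient replicate 3 the first had an adjusted p of 0.0776, and without Gα13-deficient replicate 2 the second had 0.0512. With the sex pattern and with the macrophage level as a term the CD97-deficient call was lost (0.145 and 0.0501).

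Tpm3 went the other way. It had 322, 333 and 324 CPM across the WT replicates, 396, 382 and 421 across the CD97-deficient ones and 364, 394 and 388 across the Gα13-deficient ones. The WT libraries were close together and below all others. Tpm3 rose by a log2 fold change of 0.29 ± 0.07 in CD97-deficient cells (adjusted p = 0.0232), and 0.23 ± 0.07 in Gα13-deficient cells did not pass (adjusted p = 0.0598). The call was lost without WT replicate 1 and CD97-deficient replicates 1 and 3, with 0.122 without the last. As a level it is uncertain, because 62.4% of its 50-base stretches also occur in the copy Tpm3-rs7.

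Tpm4 had 351, 323 and 343 CPM across the WT replicates, 450, 425 and 433 across the CD97-deficient ones and 344, 365 and 469 across the Gα13-deficient ones. CD97-deficient libraries were all above WT (log2 fold change 0.36 ± 0.10, adjusted p = 0.0388), a call that with 1 library left out held only without Gα13-deficient replicate 1 or 3 and had an adjusted p of 0.12 without CD97-deficient replicate 1. Gα13-deficient replicate 3 stood apart from the other libraries of its group, and that comparison did not pass (0.21 ± 0.10, adjusted p = 0.2). The summed level of the 3 tropomyosin genes was 741 ± 9.64 CPM (SD, n = 3) for WT, 891 ± 24.5 for CD97-deficient and 829 ± 79.9 for Gα13-deficient libraries. Tpm1 made up 9.48%, 10.2% and 10.8% of the tropomyosin counts in WT. It made up 6.32%, 6.39% and 5.88% for the CD97-deficient and 6.89%, 6.29% and 6.54% for the Gα13-deficient libraries. All knockout libraries lay below the WT range.

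**Figure D4:**
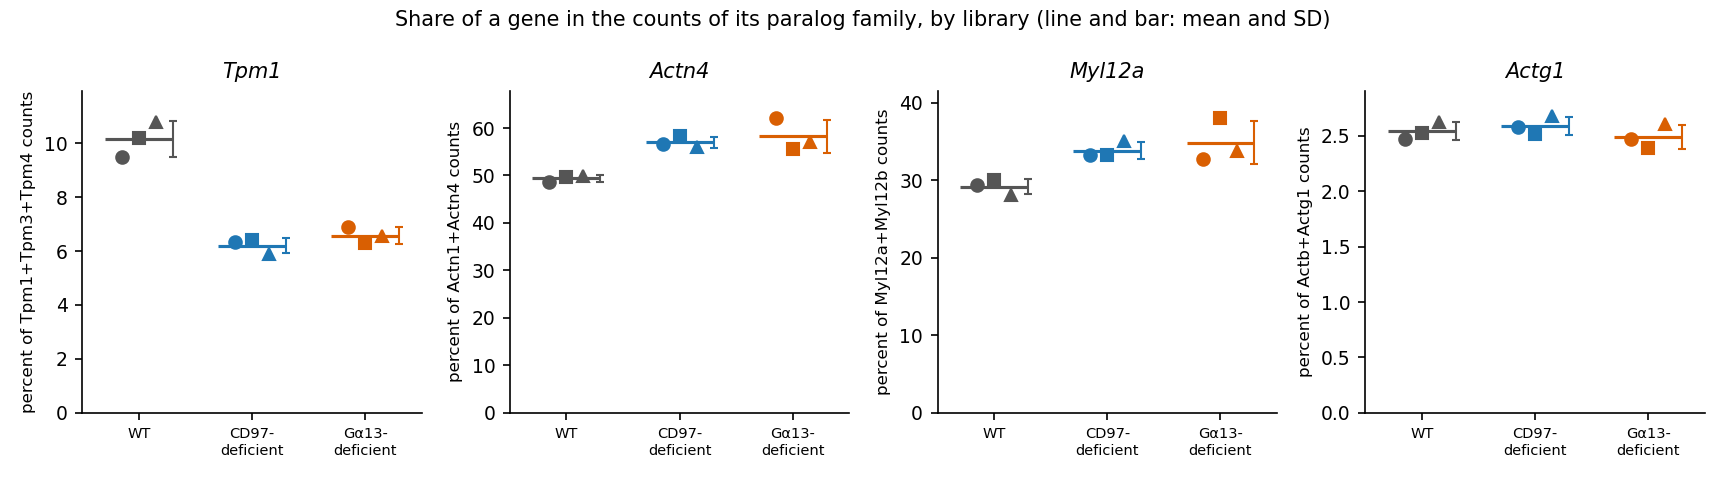
Percent of the counts of a paralog family (y axis, from 0) taken by Tpm1, Actn4, Myl12a and Actg1 in each library, with means and SD as lines and bars. Tpm1 fell from 10.2% to 6.19% and 6.57% of tropomyosin counts, Actn4 and Myl12a took larger shares in both knockouts, and Actg1 stayed between 2.39% and 2.68%.

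Other filament binders included Tagln2, Cnn2 and Lsp1. Tagln2 (chromosome 1, 172500047 to 172507380), transgelin-2, stabilises filaments in leukocytes. It had 173, 277 and 188 CPM across the WT replicates, 335, 313 and 429 across the CD97-deficient ones and 345, 421 and 331 across the Gα13-deficient ones. WT replicate 2 was the highest WT library and still below all knockout libraries. The log2 fold changes were 0.76 ± 0.20 and 0.78 ± 0.20 (adjusted p = 0.0493 and 0.0375). The CD97-deficient call held only without WT replicate 2 or Gα13-deficient replicate 2, reached 0.171 without WT replicate 1, and was lost with library totals (0.052). The Gα13-deficient call held without WT replicate 2 and CD97-deficient replicates 2 and 3, and reached 0.124 without WT replicate 1.

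Cnn2, calponin 2, had 261 to 304 CPM for WT, 323 to 338 for CD97-deficient and 304 to 345 for Gα13-deficient libraries and did not pass, with log2 fold changes of 0.26 and 0.23 and adjusted p of 0.0644 and 0.0933. Lsp1, a leukocyte filament binder, was one of the steadiest of these genes, at 772 to 865 CPM for WT, 853 to 881 for CD97-deficient and 814 to 853 for Gα13-deficient libraries. Its log2 fold changes were 0.08 (95% confidence interval -0.08 to 0.23) and 0.03 (-0.13 to 0.18).

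Of the 3 genes of non-muscle myosin II, the motor that pulls on filaments downstream of RhoA, 1 passed in each comparison, a light chain. Of all genes 8.53% and 11% passed. Myl12a (chromosome 17, 70993656 to 71002878) had 97.5, 114 and 103 CPM across the WT replicates, 141, 142 and 149 across the CD97-deficient ones and 126, 151 and 140 across the Gα13-deficient ones. All knockout libraries were above all WT libraries. It rose by a log2 fold change of 0.46 ± 0.09 (adjusted p = 0.00815) in CD97-deficient and 0.41 ± 0.09 (adjusted p = 0.0119) in Gα13-deficient cells. The first was called in all 9 fits without a library and was lost with the sex pattern as a term (0.132), and the second was lost without Gα13-deficient replicate 2 (0.0666).

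Its neighbour Myl12b (70973133 to 70990890) encodes a nearly identical light chain. It had 234, 266 and 262 CPM across the WT replicates, 285, 287 and 276 across the CD97-deficient ones and 260, 248 and 274 across the Gα13-deficient ones, with log2 fold changes of 0.15 and 0.04 that did not pass. Myl12a took 29.4%, 30.0% and 28.1% of the counts of the pair for WT, 33.2%, 33.2% and 35.1% for CD97-deficient and 32.7%, 38.0% and 33.8% for Gα13-deficient libraries. Of the 50-base stretches of Myl12a, 29.2% occur in transcripts named Myl12b, and the sources used here do not say to which gene such reads were counted. Myh9, the heavy chain, had 785, 711 and 651 CPM across the WT replicates, 813, 792 and 773 across the CD97-deficient ones and 826, 840 and 876 across the Gα13-deficient ones. The log2 fold changes of 0.15 and 0.24 did not pass (adjusted p = 0.274 and 0.0634).

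Of the 5 genes of filament growth and turnover, 1 passed in each comparison, Pfn1 in CD97-deficient and Capg in Gα13-deficient cells. With 5 genes, 1 call lies near the 8.53% and 11% of all genes that passed. Pfn1, profilin, which loads actin for growth, had 565, 668 and 681 CPM across the WT replicates, 765, 748 and 833 across the CD97-deficient ones and 749, 817 and 756 across the Gα13-deficient ones. The log2 fold changes were 0.29 ± 0.09 and 0.28 ± 0.09, with adjusted p on either side of the threshold (0.0464 and 0.0503). The CD97-deficient call held only without WT replicate 2 or 3 and reached 0.199 without CD97-deficient replicate 3. Coro1a, the leukocyte coronin, had 499 to 631 CPM in WT and 654 to 710 in the knockouts without overlap, and log2 fold changes of 0.28 and 0.27 just short of the threshold (adjusted p = 0.0541 and 0.0601). Wdr1, which helps cofilin take filaments apart, had log2 fold changes of 0.24 and 0.16 (adjusted p = 0.0885 and 0.258).

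Capg, a capping protein common in macrophages, was rare, with 2 to 60 counts per library. It had 1.2, 0.8 and 0.3 CPM across the WT replicates, 1.4, 1.3 and 3.8 across the CD97-deficient ones and 2.2, 4.2 and 4.3 across the Gα13-deficient ones. The log2 fold change of 2.08 ± 0.56 in Gα13-deficient cells passed (adjusted p = 0.0261). It was lost without WT replicate 2 or 3 and without Gα13-deficient replicate 2 or 3, with 0.0913 without the last. Ehd1, which recycles membrane receptors, had 26.5, 35.3 and 20.4 CPM across the WT replicates, 35.3, 36.9 and 40.4 across the CD97-deficient ones and 41.3, 41.7 and 42.6 across the Gα13-deficient ones. The Gα13-deficient libraries were close together and above the rest (log2 fold change 0.61 ± 0.16, adjusted p = 0.0236). That call was lost without WT replicate 1 or 3 and without each Gα13-deficient library, with 0.0713 without WT replicate 1.

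The 2 knockouts were then compared with each other directly. By edgeR's quasi-likelihood test 0 of the 29 tested genes passed, where 0.0498% of all genes did, and DESeq2 also called 0. At an unadjusted p under 0.05, 2 genes differed, Vcl (0.0118) and Vasp (0.0343), beside 6% of all genes tested. The median log2 difference, Gα13-deficient minus CD97-deficient, was -0.016. The groups did not overlap for 6 of 29 genes, 5 higher and 1 lower, against 13.1% of all genes (7.16% higher and 5.99% lower). For Flna the difference was -0.01 (95% confidence interval -0.19 to 0.18), for Actb 0.00 (-0.18 to 0.17), for Tpm1 -0.02 (-0.23 to 0.20), for Myl12a -0.05 (-0.25 to 0.15) and for Tagln2 0.02 (-0.42 to 0.46). The intervals allow differences of up to the size of their bounds and do not show that the knockouts act alike.

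Vasp was not called with all libraries, and was called lower in Gα13-deficient cells when Gα13-deficient replicate 3 was left out. That fit drops the highest value of Vasp and rests on replicates 1 and 2 of the group. Vasp, which extends filaments at the leading edge, had 131, 126 and 146 CPM across the WT replicates, 146, 146 and 139 across the CD97-deficient ones and 96.3, 90.2 and 147 across the Gα13-deficient ones. Gα13-deficient replicates 1 and 2 were below all other libraries, while replicate 3 was the highest of all 9. With all libraries, the log2 fold change against WT was -0.27 ± 0.15 (adjusted p = 0.302). Without Gα13-deficient replicate 3 it was -0.525 ± 0.098 (adjusted p = 0.00505), and against CD97-deficient cells -0.624 ± 0.098 (adjusted p = 0.0213). Arpc5, a subunit of the Arp2/3 complex that branches filaments, had the same layout, with 342, 422 and 427 CPM across the WT replicates, 483, 432 and 463 across the CD97-deficient ones and 317, 337 and 501 across the Gα13-deficient ones. Without replicate 3 its values were -0.280 against WT (adjusted p = 0.113) and -0.490 against CD97-deficient cells (adjusted p = 0.0868). On the log2(CPM + 1) scale replicate 3 exceeded the mean of the other Gα13-deficient libraries by 0.65 for Vasp, 0.61 for Arpc5, 0.40 for Tpm4 and 0.35 for Pdlim5, which placed them at the 97.2, 96.8, 91.8 and 89.9 percentiles of all genes tested. That library had the most counts, 13904646, and the part that depth or another property of the library has in this was not tested.

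**Figure D5:**
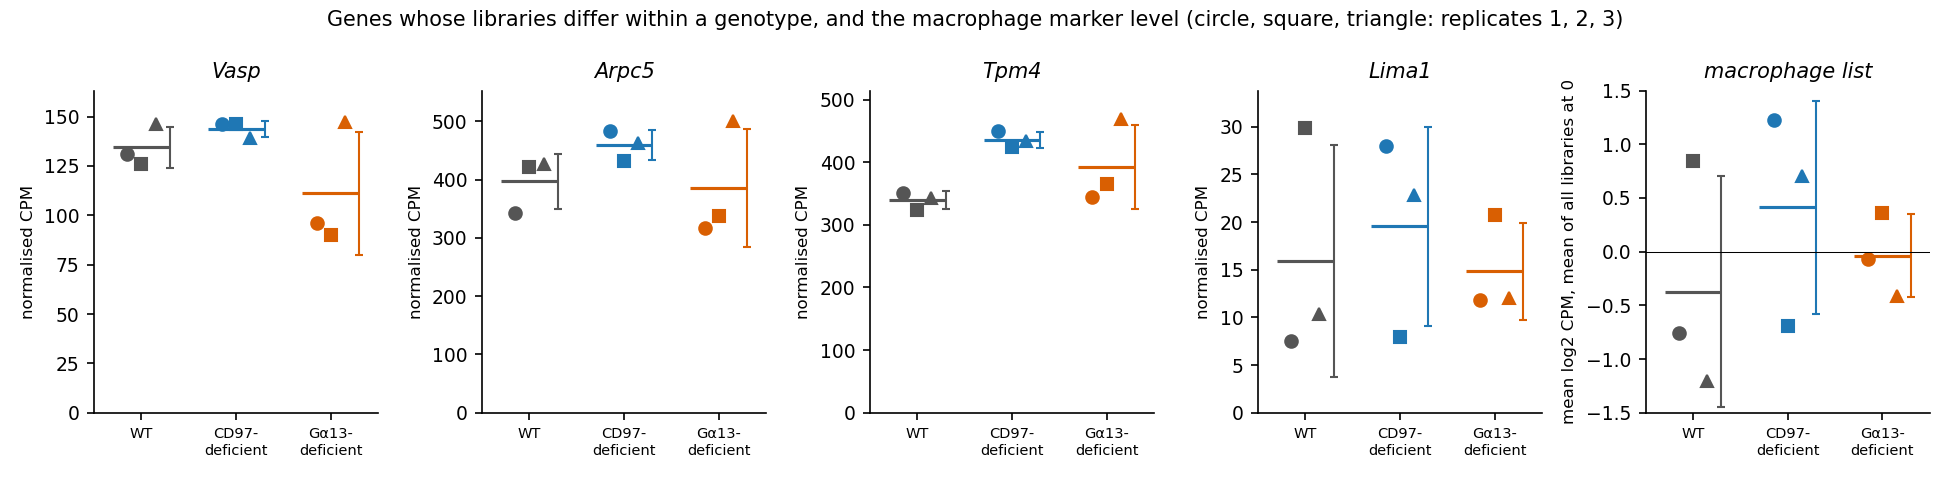
CPM after TMM scaling (y axis, from 0) of Vasp, Arpc5, Tpm4 and Lima1 in each library, and the macrophage marker level (mean log2 CPM, with the mean of all libraries at 0), with means and SD. Gα13-deficient replicate 3 stands above replicates 1 and 2 for the first 3 genes, and the library highest in Lima1 has the highest macrophage level in each genotype.

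Lima1, which encodes the filament bundler EPLIN, varied more within groups than any other of these genes. It had 7.5, 29.9 and 10.4 CPM across the WT replicates, 28.0, 7.9 and 22.8 across the CD97-deficient ones and 11.8, 20.7 and 12.0 across the Gα13-deficient ones. Its pooled SD within groups was 0.81 on the log2(CPM + 1) scale, at the 99.2 percentile of all genes tested. The macrophage marker level was -0.76, 0.84 and -1.20 in the WT libraries, 1.23, -0.69 and 0.70 in the CD97-deficient and -0.07, 0.36 and -0.41 in the Gα13-deficient ones, in the same order. In each genotype the library with the highest macrophage level had the most Lima1. The log2 fold changes of Lima1 were 0.31 and -0.13, and with that level as a term they were -0.355 and -0.200, none past the threshold. Most of the other genes were steady. The median pooled SD of the tested members was 0.108 against 0.191 for all genes tested.

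Other genes of the actin machinery, with the tubulin gene Tuba4a, formed a list outside the 31. Of 49 tested, 12 rose and 1 fell in CD97-deficient cells and 10 rose and 1 fell in Gα13-deficient cells, with median log2 fold changes of 0.157 and 0.103. These are 26.5% and 22.4% of those tested, beside 8.53% and 11% of all genes. This list too was chosen with earlier results of these data known. Tuba4a is among those that rose in both comparisons. Anln, anillin, which is also a gene of cell division, had the largest rise, from 66.5, 80.2 and 51.8 CPM in WT to 138, 132 and 138 for the CD97-deficient and 149, 163 and 166 for the Gα13-deficient libraries (log2 fold changes 1.04 and 1.26). Tmsb10, a G-actin binder, rose by 0.66 and 0.61, and Cfl1, cofilin, by 0.51 and 0.44. Arpc3 rose by 0.47 and 0.37, while Arpc5 of the same complex did not pass. Lpp, an adhesion protein related to zyxin, fell by 0.26 in CD97-deficient cells (adjusted p = 0.0427), and Cfl2, the muscle-type cofilin, fell by 0.52 in Gα13-deficient cells (adjusted p = 0.0234).

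Of the immediate early genes served by the ternary complex factors, all 15 had log2 fold changes below 0 in CD97-deficient cells (median -0.641) and 11 were above 0 in Gα13-deficient cells (median 0.265), with only Egr2 called lower in the first and Mcl1 lower in the second (6.67% of the list each, beside 8.53% and 11% of all genes). Egr2, a transcription factor induced by growth signals, was 30.0, 25.0 and 11.9 CPM across the WT replicates, 12.2, 9.08 and 8.49 across the CD97-deficient ones and 51.6, 35.8 and 35.8 across the Gα13-deficient ones. Its direct difference between the knockouts was 2.05 ± 0.31 on the log2 scale, with an adjusted p of 0.0723. The groups did not overlap for 10 of the 15, all higher in Gα13-deficient cells, where 7.16% of all genes did so. None of the 15 passed in that comparison by edgeR.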

How the data were processed

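RNA was sequenced from splenic cDC2s, 3 libraries per genotype. The authors deposited a table of whole-number counts per gene symbol, and the submitters' processing notes name STAR, HTSeq, DESeq2 and mm10 without versions. Strand setting and annotation are not given in the sources used here. No listed gene has a total under 10. The WT columns carry other numbers than the titles and were matched through the source names. Replicate numbers follow the titles.

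The gene-wise tests used edgeR 4.0.16 (R 4.3.3) with TMM factors (default expression filter, robust quasi-likelihood fit), with all 9 libraries in 1 fit by genotype. The filter removed 2166 genes. The common biological coefficient of variation was 0.15, and a count of 3 equals 0.216 to 0.528 CPM. The threshold was an adjusted p of 0.05. Intervals for fold changes use a 95% level. The test was checked on simulated counts. Exon lengths and coordinates are from GENCODE mouse release 21 (mm10). The looser motif allows 1 mismatch.

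Same-number libraries of WT and Gα13-deficient cells deviated from their group means together (correlations 0.111 to 0.179 across genes, against -0.12 to -0.0207 for other numbers). Deviations from a group mean cancel out, so positive values for the same number push the others down. Replicate 2 was also the only library with Xist above the Y-linked genes in both groups. The labels do not say that libraries were collected in pairs, so the replicate block is only an alternative. The members and lists were chosen with earlier results of these data known. Values in every library are given for Srf, Actb, Actg1 and every called member, and for others of interest chosen after their values were seen. Up to 4 called genes per list were named by smallest p (for the other actin genes, in the CD97-deficient comparison), and Lpp and Cfl2, the genes of that list called lower, after their values were seen. The targeted genes, Rhoa, Mkl1 and Mkl2 were named in any case. Alternatives were RLE factors, library totals, no filter, DESeq2 1.42.0, limma-voom 3.58.1, fits of the 2 groups compared, replicate blocks, the sex pattern or macrophage level as a term, and leaving out each library.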

Additional observations from a re-analysis of the deposited data

How the results depend on the processing

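The count of called members, 8 in CD97-deficient and 10 in Gα13-deficient cells against WT and 0 between the knockouts, was read under each alternative. In CD97-deficient cells it was 13 with library totals and 5 in a fit of the 2 groups alone. It was 1 with the sex pattern as a term and 3 with the macrophage level as a term. Over all genes these settings called 1105, 799, 222 and 543 in that order, beside 1027 in the main fit. A replicate block gave 4 in the 2 groups compared and 9 with all 9 libraries. In Gα13-deficient cells it gave 10 and 12, with no call changed in the 2 groups compared. Whether same-number libraries belong together is not given, and for CD97-deficient and WT libraries their correlations were -0.301 to 0.0594. In the fit of 2 groups without a block Actb and Ehd1 were not called in Gα13-deficient cells. Leaving out 1 library gave 2 to 9 in CD97-deficient cells, 3 (without Gα13-deficient replicate 2) to 10 in Gα13-deficient cells, and 0 to 1 (Vasp, without Gα13-deficient replicate 3) between the knockouts. The median log2 fold change over the members moved little, while those of single genes such as Lima1 and Vasp moved more. The median was 0.211 to 0.309 in CD97-deficient and 0.200 to 0.269 in Gα13-deficient cells over the alternatives, and no called gene changed direction. Between the knockouts it was -0.016, and 0.048 with the sex pattern as a term. For the members' single comparisons with WT, 37 calls were gained and 81 lost over the alternatives. Library totals raised the median of all genes by 0.05 and 0.038. The cause of these moves was not tested. Lmna had a count of 0 in WT replicates 1 and 3, which allows up to 0.313 and 0.511 CPM there. Cnn3 had at least 2 counts in every library.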

Other observations

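Of 16 listed SRF targets typical of smooth muscle, 10 were found in the count table and 6 of these passed the filter on low counts. In CD97-deficient cells 1 was called (16.7% of those tested, beside 8.53% of all genes), and in Gα13-deficient cells 0 (beside 11%). Acta2, smooth muscle actin, was at 0.286 to 1.22 CPM, and Tagln, the smooth muscle relative of Tagln2, at 3.14 to 7.30 CPM. Tpm2, a muscle tropomyosin, was at 6.65 to 21.7 CPM and did not pass in either comparison with WT. Synpo2, an actin-bundling protein of muscle, had 12.9, 8.97 and 10.2 CPM across the WT replicates, 3.43, 2.78 and 4.92 across the CD97-deficient ones and 10.8, 8.87 and 5.85 across the Gα13-deficient ones. By edgeR's quasi-likelihood test it fell by 1.51 ± 0.29 (SE) on the log2 scale in CD97-deficient cells (adjusted p = 0.00579), while -0.35 ± 0.27 in Gα13-deficient cells did not pass (adjusted p = 0.449). The CD97-deficient libraries lay below all others. The direct difference between the knockouts was 1.16 ± 0.29, with an adjusted p of 0.387.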
